A study of Mus musculus with 12 samples.

Results

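The genes described here encode enzymes that write or erase marks on histones and DNA, read from ventricular RNA sequencing of mice under angiotensin II. They were taken from the table of raw counts by gene symbol: the numbered Hdac genes, Sirt1 to Sirt7, Kdm genes with 1 number and a letter from a to d, Kmt2a to Kmt2e, Tet1 to Tet3, Dnmt1, Dnmt3a, Dnmt3b and Dnmt3l. The rule found 47 of the 55421 listed genes, and 46 of them had enough counts to be tested. Kdm4d, a demethylase best known from testis, was the exception, with counts in 3 of the 12 libraries and at most 0.114 CPM (the count scaled to the library total).

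Histone deacetylases remove acetyl groups from lysines and so tighten chromatin. The class I enzymes work in nuclear corepressor complexes, the class IIa enzymes shuttle out of the nucleus when phosphorylated and hold back MEF2 in cardiomyocytes, and the sirtuins need NAD, several of them in mitochondria. Kdm enzymes remove methyl groups from histone lysines, most Kmt2 enzymes add them to lysine 4 of histone H3, Dnmt enzymes methylate cytosine in DNA and Tet enzymes oxidise that mark.

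Wild-type (WT) mice of 3 groups gave 4 ventricular libraries each. The Con group was given saline and vehicle. The Ang II group carried an osmotic minipump with angiotensin II, a hormone that raises blood pressure, under the skin of the dorsal neck from day 0, together with vehicle. The Ang II_FI group had the same pump and was injected with Forsythoside I (FI) into the peritoneum at 50 mg/kg every other day, from the day before the pump until day 14. There was no group with FI and no angiotensin II, and the labels give neither strain, sex nor age. They call the libraries samples of separate groups without naming the animal behind each, so p-values measure the spread between these libraries.

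Libraries held 68874852 to 80624227 counts, 29.1% to 38.8% of them on mitochondrial genes, and ventricular cardiomyocyte markers summed to between 33722 and 46155 CPM in each. Ang II_FI 3 stood apart: 19 hepatocyte markers summed to 27507 CPM there, against 5.08 to 7.73 CPM in the other Ang II_FI libraries, 3.16 to 8.68 CPM in Con and 2.32 to 58.5 CPM in Ang II, the highest being Ang II 3. Xist, an RNA of the inactive X chromosome, had 12419 counts in Ang II_FI 3 and at most 14 elsewhere. The Y-linked genes Ddx3y, Uty and Eif2s3y had 4123, 1200 and 3865 counts in Ang II_FI 3 and were present in all 12 libraries. Counts of members in the Ang II_FI comparisons, and the fold changes these turn on, are therefore also given without that library. Marker sums moved with the groups as well: 8 fibroblast markers ran from 795 to 1024 CPM in Con, 1114 to 1273 in Ang II and 958 to 1059 in Ang II_FI, and 8 macrophage markers from 343 to 458, 546 to 627 and 482 to 578. In the same order of groups, 7 endothelial markers ran from 460 to 729, 615 to 831 and 478 to 577 CPM, and 6 pericyte and smooth muscle markers from 768 to 965, 956 to 1091 and 767 to 892 CPM. Rgs5 alone made 560 to 847 CPM of the last sum. In Ang II against Con 4 fibroblast and 5 macrophage markers were higher at an edgeR adjusted p under 0.05. No endothelial, pericyte or smooth muscle marker reached that in any comparison. The part of these cell types in the results below was not tested, and in whole-ventricle RNA fewer cells of a type and less RNA per cell cannot be told apart.

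Levels between genes were compared as CPM per kb of exonic length. Histone deacetylases and sirtuins held the top of the order: Hdac2 at 12.8 (mean over 12 libraries), Sirt2 at 9.09, Hdac3 at 9.02, Hdac5 at 5.76, Hdac1 at 5.29 and Sirt3 at 5.13 CPM per kb. Values of Sirt2 and Hdac3 overlapped, as did those of Hdac5, Hdac1 and Sirt3. The highest of the other families were Kdm1a (3.79), Kdm4b (3.34), Kmt2e (2.56), Kdm5c (2.41), Kdm7a (1.65), Dnmt1 (1.63) and Tet3 (0.888). At the foot of the order stood Tet1 (0.271), Dnmt3b (0.180) and Dnmt3l (0.0948), the last a partner of the de novo methyltransferases without activity of its own. Counts were present in every library for 45 members, and 33 members averaged at least 10 CPM. All 47 together made 804 to 901 CPM in Con, 742 to 879 in Ang II and 698 to 851 in Ang II_FI.

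**Figure D1:**
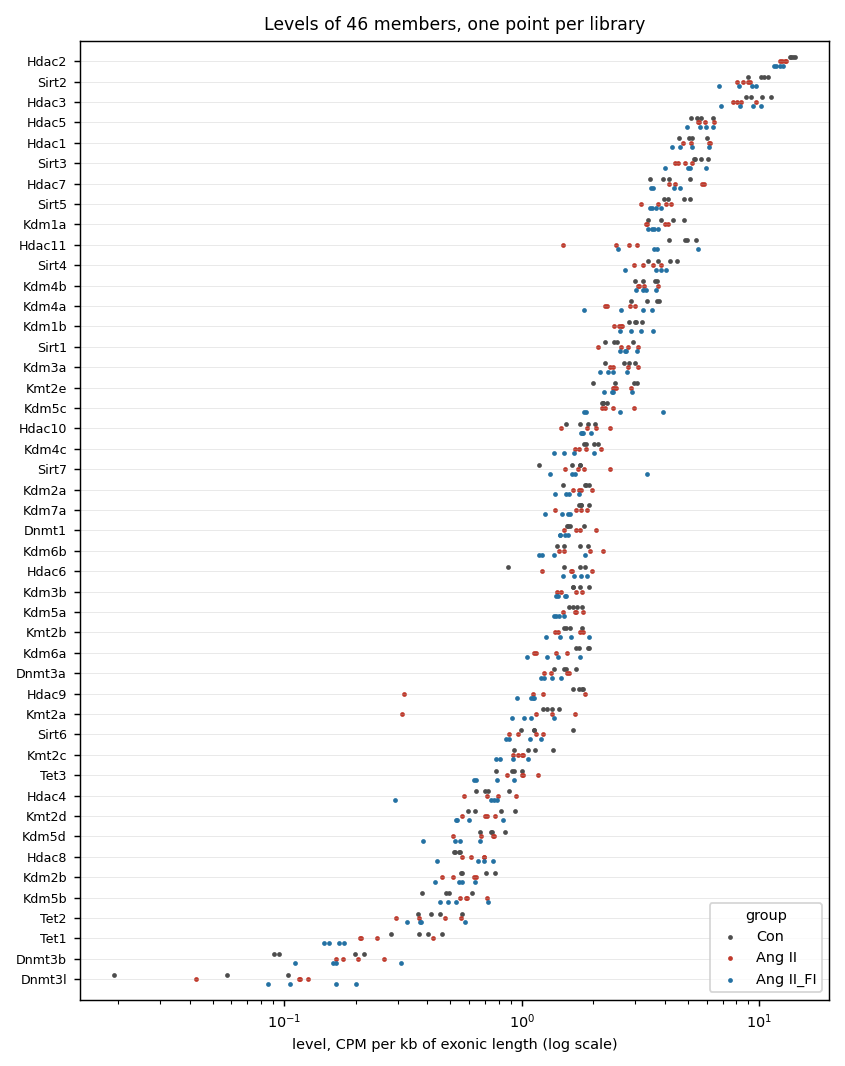
Levels of the 46 tested members as CPM per kb of exonic length (log axis), 1 point per library, coloured by group and ordered by the mean over all libraries. The order runs from Hdac2 (12.8) to Dnmt3l (0.0948), whose value of 0 in Con 2 cannot be drawn, and 34 members stay within a 2-fold span over the 12 libraries.

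For most members the libraries lay close together: the highest CPM was less than 2 times the lowest in 34 of 46. The span was over 3 times for 6, namely Hdac9 (5.76 times), Kmt2a (5.35), Hdac11 (3.68), Dnmt3b (3.42), Hdac4 (3.25) and Tet1 (3.14), apart from Dnmt3l, which had no count in Con 2. The median coefficient of variation over the tested members was 11.2% in Con, 13.0% in Ang II and 15.7% in Ang II_FI. Ang II_FI 3 was the highest of its group for 31 of 46 members.

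The comparison of Ang II with Con asks which of these genes differ under angiotensin II. Hdac11 fell to 0.499 times its Con level, and it was the only member called by edgeR's quasi-likelihood test (Benjamini-Hochberg adjusted p under 0.05 over 17376 genes, 12 libraries in 1 fit). That is 0 higher and 1 lower of 46, or 2.17%, where 2.23% of all tested genes were called, 1.57% higher and 0.662% lower. Members with an unadjusted p under 0.05 numbered 8, or 17.4%, against 16.8% of all genes. In this 12-library fit none was higher, where 9.37% of all genes were, and all 8 were lower, where 7.41% were: Hdac2, Hdac11, Sirt3, Sirt5, Kdm1b, Kdm4a, Kdm6a and Tet1. The log2 fold change was below 0 for 30 of 46 members, against 49.4% of all genes, and the median was -0.10, against 0.00. The 95% interval lay within a 1.5-fold change either way for 32 of 46. CPM of the groups did not overlap for 5 members that were lower (4.56% of all genes) and for 1 that was higher (7.74%). CPM are scaled to library totals only, while the edgeR fit also applies TMM factors to the totals. In a fit without Ang II_FI 3, the 8 lower members with an unadjusted p under 0.05 were joined by Sirt2 (-0.25), also lower. Kdm5b (0.29) then passed that threshold on the higher side.

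**Figure D2:**
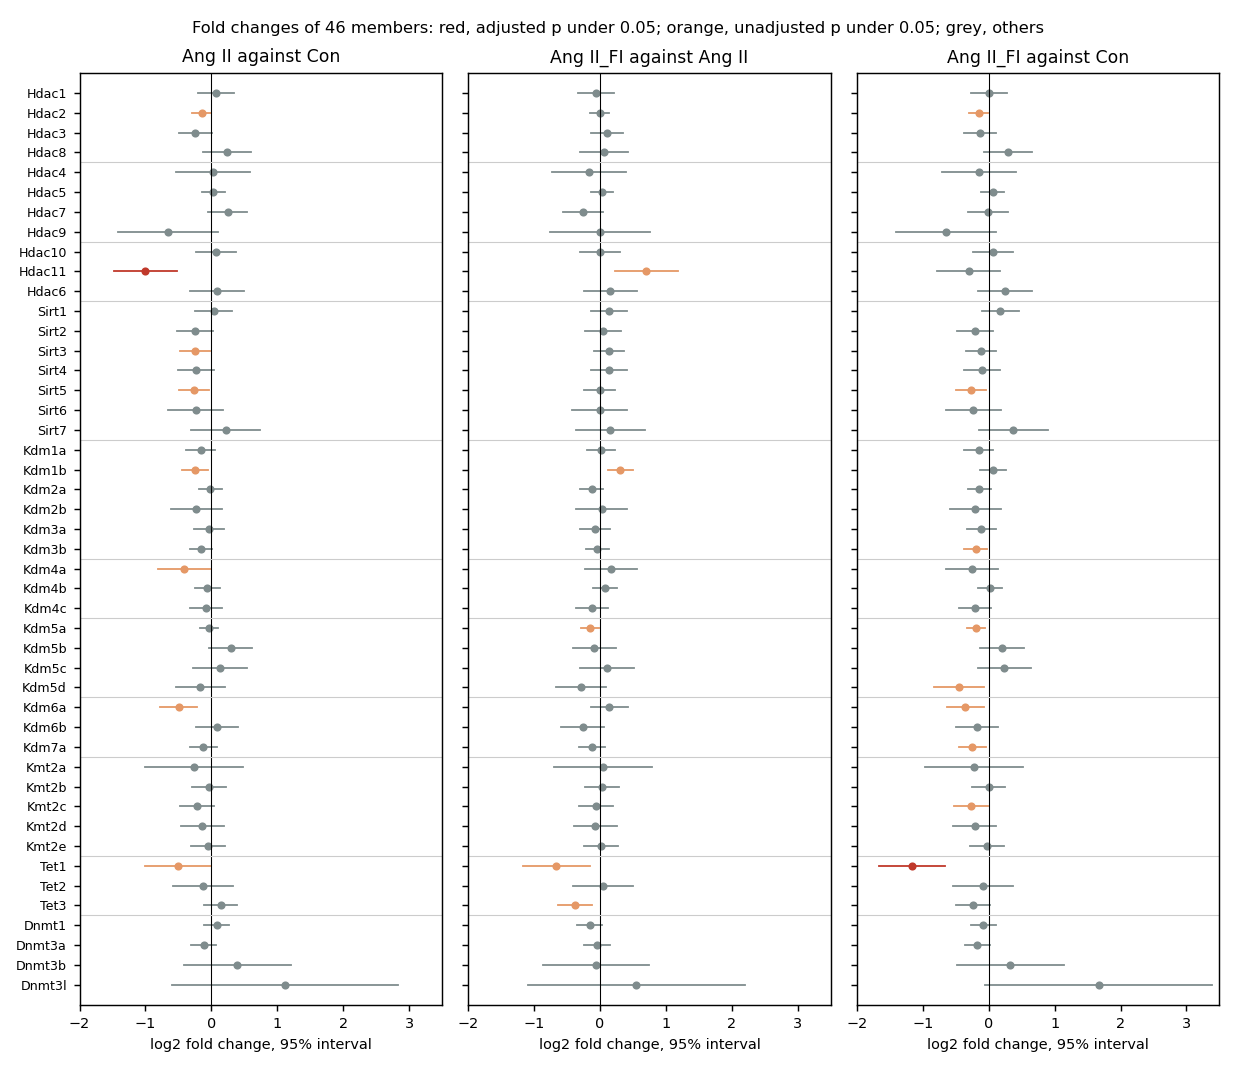
Log2 fold changes of the 46 tested members with 95% intervals from the edgeR fit, 1 panel per comparison, grouped by family. Hdac11 (-1.004) is red in Ang II against Con and Tet1 (-1.17) in Ang II_FI against Con, and no member is red in Ang II_FI against Ang II.

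Promoter sequence is shown for Hdac11, Tet1 and Kdm6a, the members called in the 12-library fit or without Ang II_FI 3. Each run is the part of the 250 bases before a RefSeq start that holds no annotated exon (GRCm38.p6, 5′ to 3′ on the gene's strand), and capitals mark the GC box GGGCGG, a motif bound by Sp1-type factors. The runs are chr6:91156565-91156664 on the plus strand, chrX:18162325-18162574 on the plus strand and chr10:62887513-62887574 on the minus strand. For Hdac11 and Tet1 the RefSeq start lies inside the annotated gene, so the run shown ends some way before that start.
Hdac11: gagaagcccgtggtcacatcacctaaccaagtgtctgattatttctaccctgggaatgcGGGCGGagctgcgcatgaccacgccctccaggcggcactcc
Kdm6a: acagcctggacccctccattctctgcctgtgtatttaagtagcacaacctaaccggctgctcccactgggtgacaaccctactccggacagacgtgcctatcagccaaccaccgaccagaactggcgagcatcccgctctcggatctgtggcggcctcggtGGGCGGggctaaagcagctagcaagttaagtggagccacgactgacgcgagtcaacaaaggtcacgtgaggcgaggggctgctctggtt
Tet1: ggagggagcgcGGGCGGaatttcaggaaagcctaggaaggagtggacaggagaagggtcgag
Each run holds 1 GC box on the strand shown. RefSeq promoters were matched for 37 of the 47 members, 55 promoters in all. GGGCGG or its reverse complement stood in 60.0% of them and in 32.7% of 32851 RefSeq promoters of the same 250 bases, and the median number of CpG was 17 against 6. TATAAA, searched on both strands, stood in 5.45% against 12.4%, and CCAAT in 32.7% against 33.9%. These matches describe the letters and say nothing of binding.

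Among the class I deacetylases, Hdac2 is a catalytic subunit of the NuRD, Sin3 and CoREST complexes. Its CPM in libraries 1 to 4 was 60.9, 63.4, 60.1 and 61.9 in Con, 57.1, 55.8, 54.6 and 57.8 in Ang II, and 56.2, 52.4, 54.5 and 51.4 in Ang II_FI. In CPM every Ang II and Ang II_FI value was below every Con value, and Ang II and Ang II_FI overlapped. With the TMM factors of the edgeR fit (1.04 in Con 3, 0.948 in Ang II_FI 1) Ang II_FI 1 lies above Con 3. Hdac2 differed from Con by -0.15 ± 0.07 (SE) on the log2 scale in Ang II (edgeR adjusted p = 0.287), a small difference in the most abundant member. Hdac8, an X-linked class I enzyme that also acts on cohesin, was the 1 member with all Ang II values above Con in CPM: 2.65, 2.54, 2.63 and 2.52 in Con against 3.37, 2.70, 2.96 and 3.35 in Ang II. With the TMM factors (0.956 in Con 1, 1.03 in Ang II 2) Con 1 lies above Ang II 2, so these groups overlap on the scale of the fit. In Ang II_FI it was 3.15, 2.14, 3.68 and 3.36 CPM, so that group overlapped both. Its log2 fold change against Con was 0.24 ± 0.17 in Ang II (edgeR adjusted p = 0.536). Hdac1 and Hdac3 had values of 0.07 and -0.24, neither called.

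Of the class IIa enzymes, Hdac5 was the most abundant per length. It stood at 45.3, 48.2, 49.7 and 56.2 CPM in Con, 56.8, 51.8, 48.5 and 49.1 in Ang II, and 43.3, 52.5, 56.1 and 49.2 in Ang II_FI. The 3 groups overlapped, and the log2 fold change of Ang II against Con was 0.03 with a 95% interval of -0.14 to 0.20. Hdac9, whose loss is known to sensitise the mouse heart to hypertrophy, was even in Con at 24.1, 25.5, 26.5 and 26.3 CPM. In Ang II it was 27.1, 4.70, 17.9 and 16.4 CPM, and in Ang II_FI 16.4, 16.4, 14.0 and 16.0. Ang II 2 was far below the rest and Ang II 1 above all Con values, whereas the 4 Ang II_FI values lay together and below Con. The log2 fold changes were -0.66 ± 0.35 for Ang II against Con (edgeR adjusted p = 0.385) and -0.65 ± 0.35 for Ang II_FI against Con (0.369), with 1 estimate of the spread over all 3 groups. In a fit of Con and Ang II_FI alone, which leaves Ang II 2 out of that estimate, Hdac9 was at -0.66 ± 0.099 and was called (edgeR adjusted p = 0.0351). The adjusted p of that comparison by edgeR was 0.0578 with Ang II 2 left out and 0.497 with Ang II_FI 3 left out (log2 fold change -0.58), the lowest and highest of the 12 such fits. Hdac4 showed a single low library of the same kind, Ang II_FI 1 at 4.61 CPM against 11.7 to 12.4 in the rest of its group. Among 13182 genes averaging 1 CPM or more, 33 to 70 per library lay under 0.4 times the lowest of their group's other libraries, and these 2 were among them, as was Kmt2a in Ang II 4. Hdac4 shares 22.4% of its exonic length with Gm26720 on the other strand. Hdac4 and Hdac7 differed from Con by 0.02 and 0.25 on the log2 scale in Ang II, without a call.

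Hdac11 (ENSMUSG00000034245, chromosome 6, 91156665 to 91174692, plus strand, GENCODE M21 on GRCm38) is the only class IV deacetylase and is best known as a remover of long-chain fatty acyl groups. It stood at 19.1, 20.9, 18.8 and 16.0 CPM in Con and at 9.59, 10.8, 5.75 and 11.8 CPM in Ang II. In Ang II_FI it was 9.77, 13.9, 21.2 and 14.3 CPM. The highest Ang II value was below the lowest Con value, and Ang II_FI spanned both groups, its top value being Ang II_FI 3. For Ang II against Con the log2 fold change was -1.004 ± 0.22 (95% interval -1.49 to -0.52, edgeR adjusted p = 0.0385). The call was lost when any Con or Ang II library, Ang II_FI 2 or Ang II_FI 4 was left out, with log2 fold changes of -1.14 to -0.84 and adjusted p of 0.0170 to 0.103 by edgeR over the 12 such fits, and it was also lost with total count scaling (-0.98, 0.0709) and with no filter on low counts (-1.01, 0.0704). The unadjusted p stayed under 0.05 in each of the 12. Exons of Hdac11 share bases with 2 antisense models, Gm44002 (15.4% of its exonic length) and Gm14573, and both had 0 counts in all libraries. The class IIb enzymes Hdac6, a tubulin deacetylase, and Hdac10 had log2 fold changes of 0.09 and 0.08 and did not pass.

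Sirtuins were mostly lower in Ang II, 5 of 7 below 0 with a median log2 fold change of -0.23, and 0 were called. Their summed level was 138 to 154 CPM in Con, 128 to 133 in Ang II and 117 to 137 in Ang II_FI. Sirt3, the main mitochondrial deacetylase, had 31.7, 32.0, 36.3 and 33.9 CPM in Con, 26.4, 27.2, 29.2 and 31.2 in Ang II, and 23.9, 29.8, 35.8 and 30.5 in Ang II_FI. The Ang II values were all below Con and the Ang II_FI values spread over both, the top one being Ang II_FI 3. Sirt3 differed by -0.25 ± 0.11 on the log2 scale (edgeR adjusted p = 0.256). Sirt3 shares 7.00% and 5.73% of its exonic length with Ric8a and Psmd13 on the other strand.

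Sirt5, which removes succinyl and malonyl groups in mitochondria, had 24.3, 25.2, 29.4 and 31.2 CPM in Con, 24.7, 22.7, 25.8 and 19.4 in Ang II, and 21.5, 23.4, 22.3 and 21.04 in Ang II_FI. Ang II overlapped Con, and Ang II_FI lay wholly below it. Sirt5 differed from Con by -0.26 ± 0.11 in Ang II and by -0.27 ± 0.11 in Ang II_FI (edgeR adjusted p = 0.235 and 0.223), the latter -0.25 without Ang II_FI 3 (0.344). Sirt2, a mainly cytosolic enzyme and the most abundant sirtuin per length, had 52.7, 45.2, 51.3 and 54.8 CPM in Con, 45.9, 40.6, 43.0 and 45.3 in Ang II, and 41.2, 46.8, 34.0 and 48.7 in Ang II_FI. Its lowest value was Ang II_FI 3, and the Ang II difference of -0.24 ± 0.13 was not called. Sirt7, a nucleolar sirtuin, was at 17.4 CPM in Ang II_FI 3 and at 6.74 to 8.60 in the rest of that group. It shares 2.41% of its exonic length with Mafg on the same strand. Mafg had 2962 counts in Ang II_FI 3 and 1057 to 1984 in the rest of that group, and a link between the 2 was not tested. Sirt1, the nuclear sirtuin that acts on PGC-1alpha, differed from Con by 0.04 in Ang II with a 95% interval of -0.24 to 0.32.

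All 6 members of the Kdm1 to Kdm3 families had a log2 fold change below 0 in Ang II, with a median of -0.16, and 0 were called. Kdm1a, the flavin-dependent demethylase LSD1, had 17.7, 20.03, 22.3 and 24.9 CPM in Con, 21.4, 17.4, 17.3 and 20.7 in Ang II, and 17.6, 19.3, 18.6 and 18.2 in Ang II_FI. These groups overlapped. Its relative Kdm1b (LSD2) separated more cleanly, with 15.5, 16.6, 17.6 and 16.5 CPM in Con, 14.1, 13.4, 14.4 and 14.5 in Ang II, and 17.4, 15.8, 19.5 and 14.3 in Ang II_FI. All Ang II values were below Con, and 3 of the 4 Ang II_FI values were above all Ang II values. The Kdm1b log2 fold change was -0.25 ± 0.09 for Ang II against Con (edgeR adjusted p = 0.176). Kdm1b shares 9.19% of its exonic length with Dek on the other strand, which had 2896 to 3907 counts per library, and the strand setting of the counting is not given in the sources used here. Kdm3b, a demethylase of histone H3 lysine 9, had 23.1, 23.1, 27.1 and 24.8 CPM in Con, 23.7, 25.2, 19.8 and 20.5 in Ang II, and 21.4, 19.9, 21.7 and 19.7 in Ang II_FI, where every value was below Con. Kdm3b shares 24.6% of its exonic length with Gm26538 on the other strand. Kdm2a, Kdm2b and Kdm3a, which act on lysines 36, 4 or 9 of histone H3, differed from Con by -0.02, -0.23 and -0.04 in Ang II.

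The 3 tested Kdm4 genes, demethylases of lysines 9 and 36 of histone H3, were also below 0 in Ang II. Kdm4a, whose overexpression is known to promote cardiac hypertrophy in mice, had 19.4, 16.7, 21.8 and 21.5 CPM in Con, 13.0, 16.5, 17.3 and 13.1 in Ang II, and 10.6, 18.6, 20.4 and 15.2 in Ang II_FI. Ang II and Con overlapped by 1 library, Ang II 3, and Ang II_FI had the widest spread. Kdm4a differed from Con by -0.42 ± 0.18 in Ang II (edgeR adjusted p = 0.270). Kdm4b, the most abundant of the family, had 14.6, 15.9, 17.9 and 18.1 CPM in Con, 16.0, 18.3, 15.1 and 15.2 in Ang II, and 16.4, 15.9, 18.01 and 14.9 in Ang II_FI, 3 groups over the same range. Kdm4c differed by -0.09 and did not pass.

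Kdm5 enzymes erase methyl marks from lysine 4 of histone H3, and the family holds an X-linked and a Y-linked copy, Kdm5c and Kdm5d. Kdm5a had 22.3, 23.3, 25.5 and 24.1 CPM in Con, 25.7, 23.8, 21.2 and 23.8 in Ang II, and 19.3, 20.3, 21.3 and 19.7 in Ang II_FI. Con and Ang II overlapped, and Ang II_FI lay below all Con values. Kdm5c had 15.5, 16.3, 15.6 and 15.6 CPM in Con, 21.1, 16.0, 17.3 and 15.4 in Ang II, and 12.9, 18.4, 27.9 and 13.3 in Ang II_FI, with Ang II_FI 3 the highest of the 12. Kdm5d had 11.2, 12.9, 11.4 and 10.1 CPM in Con, 11.5, 7.78, 10.2 and 11.6 in Ang II, and 5.82, 7.92, 8.33 and 10.2 in Ang II_FI. Xist had 12419 counts in Ang II_FI 3 and 0 in Ang II 1, the 2 libraries with the highest Kdm5c values. A link between Xist and the Kdm5c values was not tested. Kdm5b was at 0.29 ± 0.15 in Ang II against Con (edgeR adjusted p = 0.369), and at 0.29 without Ang II_FI 3 in the fit (0.251).

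Kdm6a (ENSMUSG00000037369, chromosome X, 18162575 to 18279936, plus strand), also known as UTX, removes the repressive mark on lysine 27 of histone H3. It had 14.1, 16.0, 14.6 and 16.0 CPM in Con, 13.0, 11.7, 9.42 and 9.62 in Ang II, and 8.83, 11.9, 14.7 and 10.7 in Ang II_FI. All Ang II values were below Con, and so were the Ang II_FI values except Ang II_FI 3. The log2 fold change was -0.50 ± 0.13 for Ang II against Con, 0.709 times Con, with an edgeR adjusted p of 0.0679. Without Ang II_FI 3 in the fit, which leaves the 8 libraries compared as they were, it was called (-0.50, edgeR adjusted p = 0.0344). Then 2 members were called, Hdac11 and Kdm6a, where 3.86% of all genes were. Kdm6a was also called without Ang II_FI 1 (0.0441), by DESeq2 (0.0143) and in a fit of Con and Ang II alone (0.0366). DESeq2 called 1099 genes in this comparison, against 388 in the 12-library edgeR fit. Of the 12 fits that each left out 1 library, 2 called Kdm6a, with edgeR adjusted p of 0.0344 to 0.176 over the 12. The other scalings, filters and designs did not call it. Kdm6b, the inducible enzyme for the same mark, differed by 0.09 and was not called.

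Kdm7a, a demethylase of lysines 9 and 27 of histone H3, had 17.8, 17.5, 19.3 and 17.8 CPM in Con, 19.0, 17.8, 13.9 and 17.1 in Ang II, and 14.8, 16.0, 15.8 and 12.5 in Ang II_FI. Ang II overlapped Con and Ang II_FI did not. The Kdm7a log2 fold change of Ang II_FI against Con was -0.25 ± 0.09 (edgeR adjusted p = 0.196), and -0.25 without Ang II_FI 3 (0.268).

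The 5 Kmt2 genes were all below 0 in Ang II, with a median of -0.14 and 0 called. Kmt2e, the most abundant per length, had 25.8, 30.9, 31.8 and 20.9 CPM in Con, 30.2, 26.1, 25.5 and 25.3 in Ang II, and 23.2, 24.97, 30.5 and 25.2 in Ang II_FI, with all groups overlapping. Kmt2c, which with Kmt2d places the lysine 4 mark at enhancers, had 21.5, 18.8, 27.4 and 23.0 CPM in Con, 20.6, 18.7, 19.5 and 20.3 in Ang II, and 15.8, 21.5, 18.6 and 16.5 in Ang II_FI. Its groups overlapped too, and the log2 fold change of Ang II_FI against Con was -0.28 ± 0.12 (edgeR adjusted p = 0.259), and -0.26 without Ang II_FI 3 (0.372). Kmt2a was at 5.21 CPM in Ang II 4 and at 19.1 to 27.8 in the other Ang II libraries, which gave a wide error, -0.27 ± 0.34. Without Ang II 4 its log2 fold change of Ang II against Con was 0.04. Kmt2b and Kmt2d were at -0.04 and -0.14.

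Tet1 (ENSMUSG00000047146, chromosome 10, 62804570 to 62908996, minus strand) had 6.21, 7.10, 5.68 and 4.36 CPM in Con, 6.54, 3.27, 3.79 and 3.22 in Ang II, and 2.77, 2.39, 2.27 and 2.63 in Ang II_FI. Ang II 1 lay among the Con values and the other Ang II libraries below them, and every Ang II_FI value was below every value of the other groups. Against Con, the log2 fold change in Ang II was -0.51 ± 0.23 (edgeR adjusted p = 0.290). Tet3, the most abundant of the family, had 15.2, 15.5, 16.8 and 13.0 CPM in Con, 19.5, 16.9, 14.5 and 16.8 in Ang II, and 13.1, 10.5, 15.4 and 10.7 in Ang II_FI. Con and Ang II overlapped, and the Ang II_FI values lay below all Ang II values except Ang II_FI 3. Tet2, known for its loss in clonal blood cells, differed by -0.12 in Ang II without a call.

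Dnmt1, which copies methylation after replication, had 11.5, 11.5, 11.7 and 13.5 CPM in Con, 15.1, 13.0, 11.1 and 12.5 in Ang II, and 10.7, 11.2, 11.5 and 10.7 in Ang II_FI. The Ang II difference was 0.08 ± 0.09, and the groups overlapped. Of the de novo enzymes, Dnmt3a was at -0.12 ± 0.09, and Dnmt3b and Dnmt3l, at means of 0.917 and 0.283 CPM, had intervals of -0.42 to 1.21 and -0.60 to 2.83, so that a change within these bounds was not detectable at this depth. A sum of 12 cell division markers was 45.2 to 59.7 CPM in Con, 56.4 to 70.0 in Ang II and 48.2 to 62.1 in Ang II_FI.

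**Figure D3:**
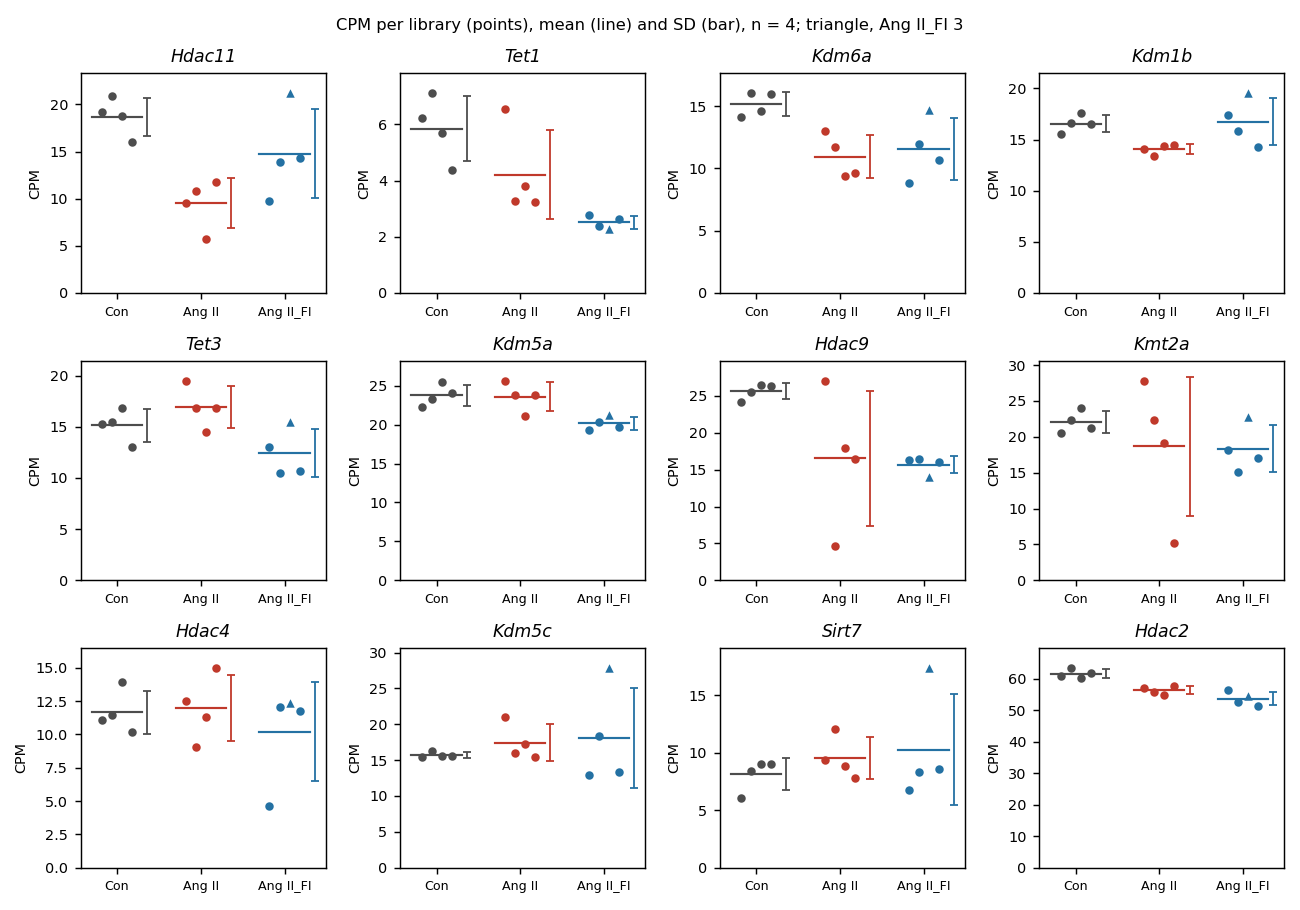
CPM of 12 members in each library (points), with group mean and SD (n = 4 libraries per group); the triangle is Ang II_FI 3, and every axis starts at 0. Hdac11 lies at 5.75 to 11.8 CPM in Ang II below 16.0 to 20.9 in Con, Tet1 at 2.27 to 2.77 in Ang II_FI, and single low libraries stand out for Hdac9, Kmt2a and Hdac4.

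The comparison of Ang II_FI with Ang II asks what FI changes in hearts under angiotensin II. No member was called by edgeR, and neither was any of the 17376 genes (0.0%). An unadjusted p under 0.05 was reached by 5 members, or 10.9%, against 1729 genes (9.95%). DESeq2 called 42 genes and limma-voom 0, none of them members. At an unadjusted p under 0.05, Hdac11 and Kdm1b were higher, or 4.35% of members (5.46% of all genes). Tet1, Tet3 and Kdm5a were lower, or 6.52% (4.49%). Hdac11 and Kdm1b were lower in Ang II than in Con. That comparison and this one share the 4 Ang II libraries, whose low values push the 2 fold changes in opposite directions. The interval lay within a 1.5-fold change either way for 35 of 46 members. The median log2 fold change was 0.00 (0.02 over all genes), and 23 of 46 lay below 0 (46.9% of all genes). With total count scaling 32 of 46 did, against 56.6% of all genes. The TMM factors, which scale the totals in the edgeR fit but not in CPM, were 0.948 to 0.954 in Ang II_FI 1, 2 and 4 and 1.07 in Ang II_FI 3.

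Hdac11 had the largest positive log2 fold change of the members, 0.70 ± 0.22, or 1.62 times Ang II, with an edgeR adjusted p of 0.411. Without Ang II_FI 3, where it was highest, the value was 0.52 (edgeR adjusted p = 0.565), and Ang II_FI 1, at 9.77 CPM, lay among the Ang II values. Kdm1b was at 0.31 ± 0.09 (0.26 without Ang II_FI 3, edgeR adjusted p = 0.411 and 0.546). On the lower side, Tet1 was at -0.66 ± 0.23 and was the 1 member whose CPM did not overlap, where 5.12% of all genes were lower and 0.858% higher in that way. It was at -0.59 without Ang II_FI 3 (edgeR adjusted p = 0.415 and 0.586). Tet3 was at -0.38 ± 0.12 with all libraries and -0.47 without Ang II_FI 3 (edgeR adjusted p = 0.411 and 0.542), and Kdm5a at -0.16 ± 0.06 and -0.16 (0.446 and 0.648).

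Without Ang II_FI 3 the count of called members stayed at 0, where 1 of 17702 genes was called (0.00565%). An unadjusted p under 0.05 was reached by 5 members (7.93% of all genes), Hdac11 and Kdm1b higher, and Tet1, Tet3 and Kdm6b lower. Kdm6b had 15.3, 13.4, 10.4 and 9.97 CPM in Ang II and 8.21, 8.48, 12.9 and 9.49 in Ang II_FI, with Ang II_FI 3 the high value, and its log2 fold change went from -0.27 to -0.39. The groups then did not overlap for 8 members, all lower, which is 17.4% where 9.89% of all genes were lower and 1.32% higher in that way: Kdm2a, Kdm4c, Kdm5a, Kdm5b, Kdm6b, Kmt2e, Tet1 and Tet3. That count rests on CPM, which carry no TMM factor. In the edgeR fit without Ang II_FI 3, Kmt2e was at -0.03, Kdm2a at -0.15, Kdm5a at -0.16, Kdm4c at -0.20 and Kdm5b at -0.21. None of these reached an unadjusted p under 0.05. Signs turned for uncalled members, among them Sirt7 (0.16 to -0.17), Kdm5c (0.11 to -0.13) and Tet2 (0.04 to -0.12). In all 27 of 46 lay below 0, against 50.4% of all genes.

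**Figure D4:**
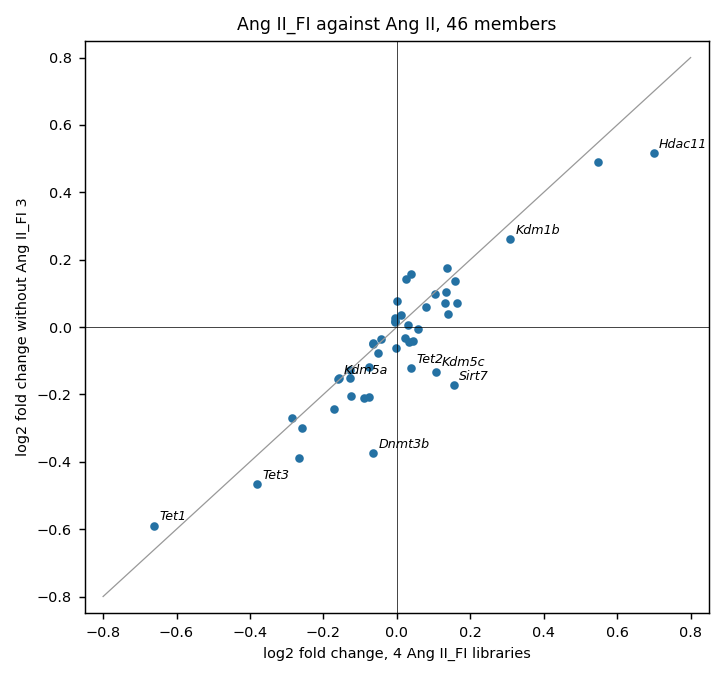
Log2 fold change of Ang II_FI against Ang II for the 46 tested members with all libraries (x axis) and without Ang II_FI 3 (y axis); the diagonal marks equal values. Hdac11 moves from 0.70 to 0.52 and Tet1 from -0.66 to -0.59, while Sirt7 and Kdm5c cross 0.

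The comparison of Ang II_FI with Con shares its libraries with the other comparisons. Tet1 fell to 0.445 times Con, a log2 fold change of -1.17 ± 0.23 (95% interval -1.67 to -0.66, edgeR adjusted p = 0.0403), and was the only member called. That is 2.17% of 46, all genes having 0.978% called, 0.719% higher and 0.259% lower. Without Ang II_FI 3 the adjusted p was 0.0525 by edgeR (-1.10), and 0 members were called where 1.24% of genes were. Over the 12 fits with 1 library left out, Tet1 was at -1.29 to -1.06 and was called in 1, without Ang II 1. It was not called with upper-quartile scaling (edgeR adjusted p = 0.0515), no filter on low counts (0.0759) or a fit of these 2 groups alone (0.0523). Members with an unadjusted p under 0.05 numbered 9, or 19.6%, against 17.3% of all genes, with none higher (10.4%) and all 9 lower (6.92%): Hdac2, Sirt5, Kdm3b, Kdm5a, Kdm5d, Kdm6a, Kdm7a, Kmt2c and Tet1. They numbered 10 without Ang II_FI 3, or 21.7%, against 15.7% of all genes, with none higher (8.24%) and all 10 lower (7.43%): Hdac11, Kdm4c, Kdm5a, Kdm5d, Kdm6a, Kdm6b, Kdm7a, Kmt2d, Tet1 and Tet3.

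Kdm6a was at -0.36 ± 0.13 in this comparison (-0.46 without Ang II_FI 3, edgeR adjusted p = 0.184 and 0.0978) and Hdac11 at -0.31 ± 0.22 (-0.49, 0.521 and 0.277). Kdm5d was at -0.45 ± 0.17, Kdm5a at -0.19 ± 0.06, Kdm3b at -0.20 ± 0.08 and Hdac2 at -0.15 ± 0.07 (edgeR adjusted p = 0.208, 0.152, 0.221 and 0.264). These 4 were, without Ang II_FI 3, at -0.44, -0.19, -0.20 and -0.13 (edgeR adjusted p = 0.285, 0.250, 0.322 and 0.418). CPM, which carry no TMM factor, did not overlap for 7 members, all lower (6.06% of all genes lower, 3.52% higher), and for 15, again all lower, without Ang II_FI 3 (11.0% and 4.72%). The log2 fold change was below 0 for 33 of 46, against 46.6% of all genes, with a median of -0.15 against 0.02, and for 35 without Ang II_FI 3, against 51.1%.

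Partners of these enzymes were read from 11 lists with 189 genes, of which 185 were tested. In Ang II against Con 1.62% of the 185 were called, a gene not reported here among them, against 2.23% of all genes. Their median log2 fold change was -0.06, against 0.00 over all genes. In Ang II against Con, Ncoa1, a coactivator with acetyltransferase activity, fell from 19.3 ± 2.39 to 9.70 ± 2.72 CPM (mean ± SD, n = 4), a log2 fold change of -1.01 ± 0.17 (edgeR adjusted p = 0.0156), and was the 1 called of 14 acetyltransferases, 11 of them below 0. Ywhaq, a 14-3-3 protein of the family that holds phosphorylated class IIa deacetylases in the cytosol, rose by 0.41 ± 0.08 (edgeR adjusted p = 0.0281) and was the 1 called of 20 tested kinases, 14-3-3 proteins and MEF2 factors. With 1 library left out, Ncoa1 was called in 10 of 12 fits and Ywhaq in 6.

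A further 8 lists had 0 called in this comparison, in which 49.4% of all genes lay below 0. Below 0 lay 25 of 35 tested histone methyltransferases outside the Kmt2 family (smallest p: Ash1l -0.28, Smyd2 -0.26), 8 of 10 further demethylases (Kdm8 -0.54, Phf2 -0.23) and 14 of 24 corepressor subunits (Ncor1 -0.23, Rcor2 -0.43). The same held for 8 of 11 Kmt2 partners (Rbbp5 -0.24, Hcfc1 -0.18), 11 of 20 Polycomb genes (Cbx7 -0.43, Pcgf3 0.20), 7 of 10 acetyl-lysine readers (Brd7 -0.14, Mllt3 -0.18) and 10 of 15 tested NAD genes (Nmnat3 -0.46, Parp1 -0.31). Only for DNA methylation partners did most lie above 0, 9 of 13. Uhrf1, which recruits Dnmt1 to hemimethylated DNA, went from 0.658 ± 0.430 to 1.62 ± 0.181 CPM there (1.30 ± 0.40 on the log2 scale, edgeR adjusted p = 0.112), and Zbtb38 was at 0.57.

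In Ang II_FI against Ang II 0 of the 185 were called. The smallest p of each list belonged to Ncoa1 (0.65) and Taf1 (-0.64), Prmt9 (-0.31) and Prdm16 (-0.32), Riox1 (-0.36) and Riox2 (-0.21), Rcor1 (-0.27) and Sap30 (0.25), Pagr1a (1.82) and Paxip1 (-0.15), and Cbx6 (-0.42) and Suz12 (-0.20), all log2 fold changes. In the remaining lists they were Uhrf2 (-0.25) and Hells (-0.91), Brd7 (0.13) and Brpf3 (0.44), Prkd2 (-0.50) and Ywhaq (-0.15), Cd38, an NAD-consuming enzyme (-0.61), and Naprt (0.56), and Gnmt and Mat1a. Gnmt and Mat1a, enzymes of S-adenosylmethionine known from liver, were at 5.03 and 8.79 with all libraries and at -0.19 and -0.21 without Ang II_FI 3, while Pagr1a, Brpf3 and Naprt went to 0.96, 0.01 and 0.08. Hells went to -0.64, and the remaining genes named for this comparison moved by at most 0.15. Leaving out that library, 0 of the 185 were called.

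In Ang II_FI against Con 0 of the 185 were called with all libraries, against 0.978% of all genes. Without Ang II_FI 3, where 1.24% of all genes were called, there was 1. This was Smyd4, of the histone methyltransferases outside the Kmt2 family, named after its value was seen. It was at -0.64 ± 0.24 with all libraries (edgeR adjusted p = 0.204) and fell by 0.95 ± 0.19 on the log2 scale without Ang II_FI 3 (0.0339). Mat1a was at 11.6 with all libraries and 2.64 without Ang II_FI 3. The other genes with the smallest p were Ep300 (-0.27) and Kat6a (-0.52), Ash1l (-0.25) and Nsd2 (-0.38), Kdm8 (-0.54) and Phf2 (-0.30), Sap30 (0.49) and Suds3 (0.22), and Paxip1 (-0.30) and Hcfc1 (-0.29). For the last lists they were Suz12 (-0.24) and Cbx7 (-0.33), Uhrf1 (1.17) and Zbtb38 (0.51), Mllt3 (-0.27) and Brd9 (-0.16), Ywhaq (0.26) and Camk2b (-1.03), and Nmnat3 (-0.35) and Parp1 (-0.27). The values of these other genes moved by at most 0.18 without Ang II_FI 3.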

How the data were processed

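Ventricular RNA of 12 libraries was analysed from a table of raw counts per gene that the authors deposited. The submitters' processing notes name build GRCm38 and the tools HISAT, featureCounts (1.5.0-p3) and DESeq (1.8.3). Strandedness, multi-mapping reads and the annotation used are not stated there. The labels' protocols name both TRIzol and an RNeasy kit, and a SMARTER mRNA kit for the libraries. Of 55421 genes, 27438 had no count. Symbols that a spreadsheet had turned into dates (27) were restored from the gene IDs.

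CPM were computed on library totals, where 3 counts equal 0.0372 to 0.0436 CPM (counting error only), and exonic lengths came from GENCODE M21, which matched 99.7% of IDs. Genes were filtered with filterByExpr, scaled by TMM and tested with edgeR 4.0.16 (quasi-likelihood, R 4.3.3, 3 group means, no covariates), with Benjamini-Hochberg adjustment over 17376 genes; called means an adjusted p under 0.05. Alternatives were DESeq2 1.42.0, limma-voom (limma 3.58.1), other scalings, filters and designs, and each library left out. Fits were tested on simulated counts.

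The members and the partner lists were chosen with earlier results of these data known. Values per library are given for members with an unadjusted p under 0.05 in any comparison or with groups that do not overlap in Ang II against Con or Ang II_FI against Ang II, and for the most abundant member per length of each family. Hdac9, Hdac4, Kmt2a, Sirt7 and Kdm6b were named in addition after their values were seen. Of each partner list, called genes are named, or otherwise those with the 2 smallest p. A gene that the rule takes is not reported here.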

Additional observations from a re-analysis of the deposited data

Results flagged for a closer look

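In 7 of 138 groups of 4 libraries (46 members, 3 groups) 1 library lay so far from the others that its gap to the nearest exceeded Dixon's 95% critical share of the group's range, which chance gives in about 1 in 20 groups. Hdac4 was at 4.61 CPM in Ang II_FI 1, against 11.7 to 12.4 in the rest of the group, and Dnmt3l, at a low level, at 0.127 CPM in Ang II 3, against 0.345 to 0.377. The others were smaller gaps: Dnmt1 at 13.5 CPM in Con 4, Kdm5c at 16.3 in Con 2, Kdm7a at 19.3 in Con 3, Kdm2a at 21.6 in Con 1 and Kmt2e at 30.2 in Ang II 1.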

How the results depend on the processing

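Members called were 1 in Ang II against Con. This became 0 with total count scaling, with no filter on low counts and with the replicate number as a block, 2 with DESeq2 and with only the 2 groups compared, and 0 to 2 over the 12 fits that each left out 1 library. In Ang II_FI against Con the 1 became 0 with upper-quartile scaling, with no filter, with the replicate block and without both Ang II 3 and Ang II_FI 3, and 0 to 1 with 1 library left out. In a fit of only those 2 groups the 1 called was Hdac9, not Tet1. In Ang II_FI against Ang II it was 0 in all of these settings. Over all genes, calls in Ang II against Con went from 388 to 1099 with DESeq2 and 124 with the block (90 to 683 with 1 library left out), in Ang II_FI against Con from 170 to 847, 48 in a fit of the 2 groups and 61 with the block (41 to 220), and in Ang II_FI against Ang II from 0 to at most 42. Same-numbered libraries deviated together little (correlations of -0.06 to 0.10, the highest between Ang II 3 and Ang II_FI 3). Such correlations cannot exclude that libraries of the same number were handled together. Of 1035 refitted fold changes of 15 members, 0 called values changed sign, 29 lost a call, 4 gained one, and 16 uncalled values changed sign. Losses fell on Hdac11 (Ang II against Con) and Tet1 (Ang II_FI against Con), and gains on Kdm6a (Ang II against Con). The cause of these moves was not tested. Low counts limit Dnmt3l and Kdm4d, and Dnmt3b was also under 1 CPM.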
